A study of Mus musculus with 6 samples.

Results

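The ventral prostates of a pair of transgenic mouse lines, which carry different forms of the lipoxygenase 15-LOX2, were compared with each other. The fl26 line is transgenic for 15-LOX2 and the svb9 line for its splice variant b. The comparison rests on the 2 fl26 and the 2 svb9 arrays of a series of 6. The other 2 arrays, of wild type mice 15 months old, do not enter the ratios or differences reported as main values. They enter only the alternative fits over all 6 arrays and the scaling of intensities across arrays. Both lines were sampled at 2.5 months of age, on the FVB strain. RNA of the line was labelled with Cy5, read in red, and RNA of wild type mice, also 2.5 months old, with Cy3, read in green. A value is log2 of red over green, so 0 means the level of the young wild type apart from a probe's dye effect. A difference is the fl26 mean minus the svb9 mean. The dyes were not swapped, but a probe's dye effect is shared by both lines and drops out of that difference, and so does the wild type level as far as its RNA was alike on the arrays. In a single value the dye effect remains, so the sign of a ratio does not by itself place a line above or below the wild type. RNA came from pooled ventral prostates, of 3 mice per pool in the extraction protocol and of 6 mice in the design text, with an independent set of samples for each replicate. Each isoform is represented by 1 line, so the isoform cannot be told apart from other properties of the line, such as where the transgene lies. The promoter that drives the transgene is not given in the sources used here.

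15-LOX2 is a lipoxygenase that adds oxygen to arachidonic acid to give 15-HETE, and in the human prostate it is found in differentiated luminal cells, where it has been studied as a brake on proliferation. Splice variant b is an alternatively spliced form of it. The ventral prostate of the mouse is a gland of luminal secretory cells on a thin layer of basal cells, surrounded by smooth muscle and fibroblasts, and it releases proteins such as ribonucleases and protease inhibitors into its ducts.

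The comparison took 14205 of 41174 probes, those well above background in red on all 4 arrays. They named 8812 genes, each represented below by its brightest probe unless another is mentioned. The arrays differed in signal: 27070 and 27809 probes were above background in red on arrays 1 of fl26 and svb9, and 17568 and 14423 on arrays 2. Ratios of same-numbered arrays of different lines correlated across the tested probes with r = 0.47 (number 1) and 0.72 (number 2), and arrays of the same line with r = 0.28 (fl26) and 0.20 (svb9). Probes and genes are not independent replicates, so these are descriptions. Because the ratios go with the replicate number in this way, values are given by array, and counts use the differences within number 1 and within number 2. The number 1 arrays of both lines were extracted from their scans on the same date, per the file headers, and those of number 2 on different dates. Of markers of the labelled tissue, 21 of 23 luminal genes and 9 of the 10 ventral prostate secretory genes on the array were measured on all 4 arrays, against 2 of 15 secretory genes of other lobes and the seminal vesicle. Both of those 2 were bright, saturated in red on at least 1 array. Their median ratio went with the replicate number, at -1.14 and 0.44 on fl26 arrays 1 and 2 and -1.41 and 0.61 on those of svb9.

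No probe passed limma's test between the lines (0 of 14205, or 0%, at a Benjamini-Hochberg adjusted p under 0.05), and the smallest adjusted p was 0.290. Without adjustment, 307 probes (2.16%) lay under 0.05. With 2 arrays against 2, an exact 2-sided permutation test of a single value cannot go below 0.333. Fits on 3 arrays, in which the lone array of a line is assumed to vary like the pair of the other, called 3 probes without the first fl26 array, 3 without the second, 1 without svb9 array 2 and 0 without svb9 array 1. Without fl26 array 2 the calls were Rb1cc1, Ang5 and Psmc3ip, with an adjusted p of 0.0256 each by limma with Benjamini-Hochberg adjustment. Without fl26 array 1 they included Kel, at 0.0397. The differences that follow are therefore measured values with their errors, and this fit of all 4 arrays called no gene.

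A smaller group of probes stood apart in both replicate numbers. Differences of at least 1.5-fold in the same direction in number 1 and in number 2 were found for 69 probes (0.486% of those tested), 38 higher in fl26 (0.268%) and 31 lower (0.218%). At 2-fold there were 14 higher (0.0986%) and 5 lower (0.0352%). Of the 303 probes past 1.5-fold in number 1, 248 (81.8%) had the same sign in number 2, and 2 were past 1.5-fold in the opposite direction. Of the 371 past 1.5-fold in number 2, 256 (69.0%) had the same sign in number 1. Over all probes the sign was shared by 51.9%, and the differences of number 1 and number 2 correlated with r = 0.24. The count of 69 depends on the processing: it was 118 with an offset of 10 in place of 50 in the background correction, 151 with the scanner software's own ratios, and 140 with median centring, which made 134 of them higher and 6 lower in fl26. The plot of one replicate number against the other shows the 69 probes at the upper right and lower left of the cloud.

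**Figure D1:**
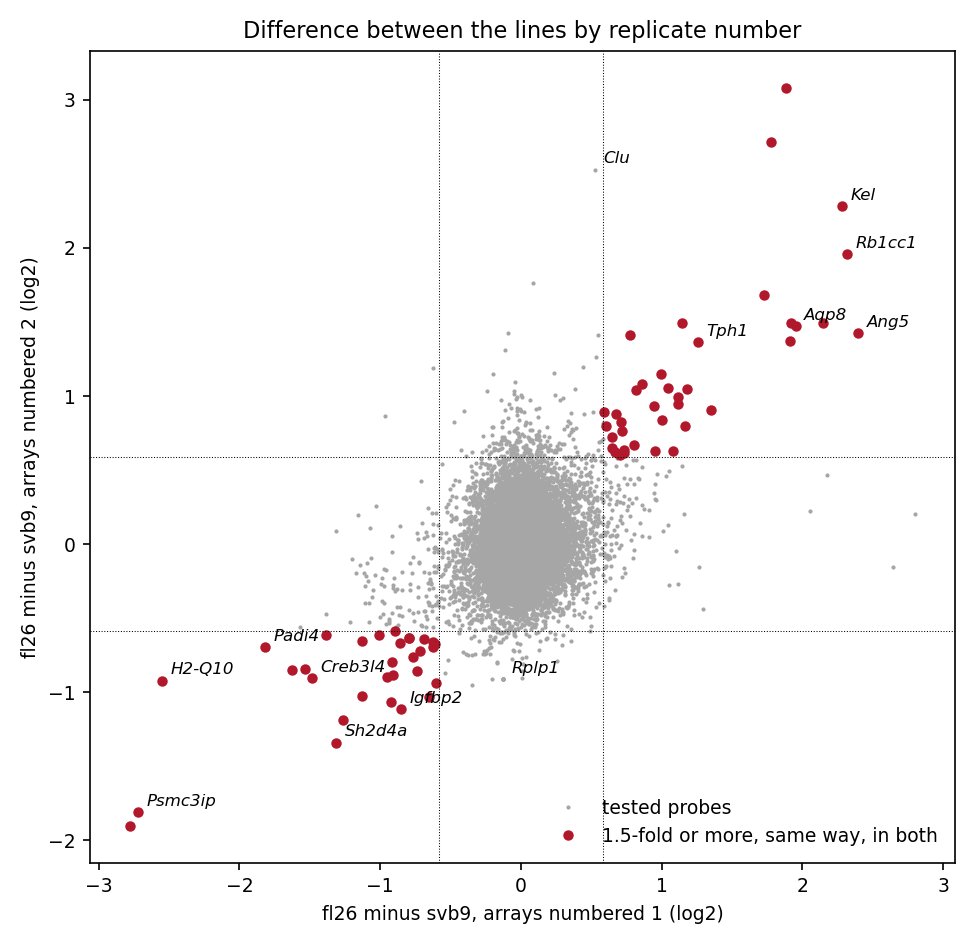
Difference between the lines (log2, fl26 minus svb9) for each of the 14205 tested probes, with the arrays numbered 1 on the horizontal axis and those numbered 2 on the vertical axis; dotted lines mark 1.5-fold. The 69 red points are past 1.5-fold the same way in both numbers, 38 at the upper right and 31 at the lower left, and Clu and Rplp1 are large in 1 number only.

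Taking for each gene the gap between the nearest arrays of the 2 lines, 12 genes with the widest gap were named in each direction. For comparison, the arrays of the 2 lines did not overlap for 1092 genes higher in fl26 (12.4%) and 940 lower (10.7%), so a gap alone is common and its size is what sets these 24 genes apart. Their standard errors in limma lay between 0.14 and 0.37 and their Benjamini-Hochberg adjusted p values were 0.290 or more. The plot of the 24 genes by array shows the 4 values of each.

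**Figure D2:**
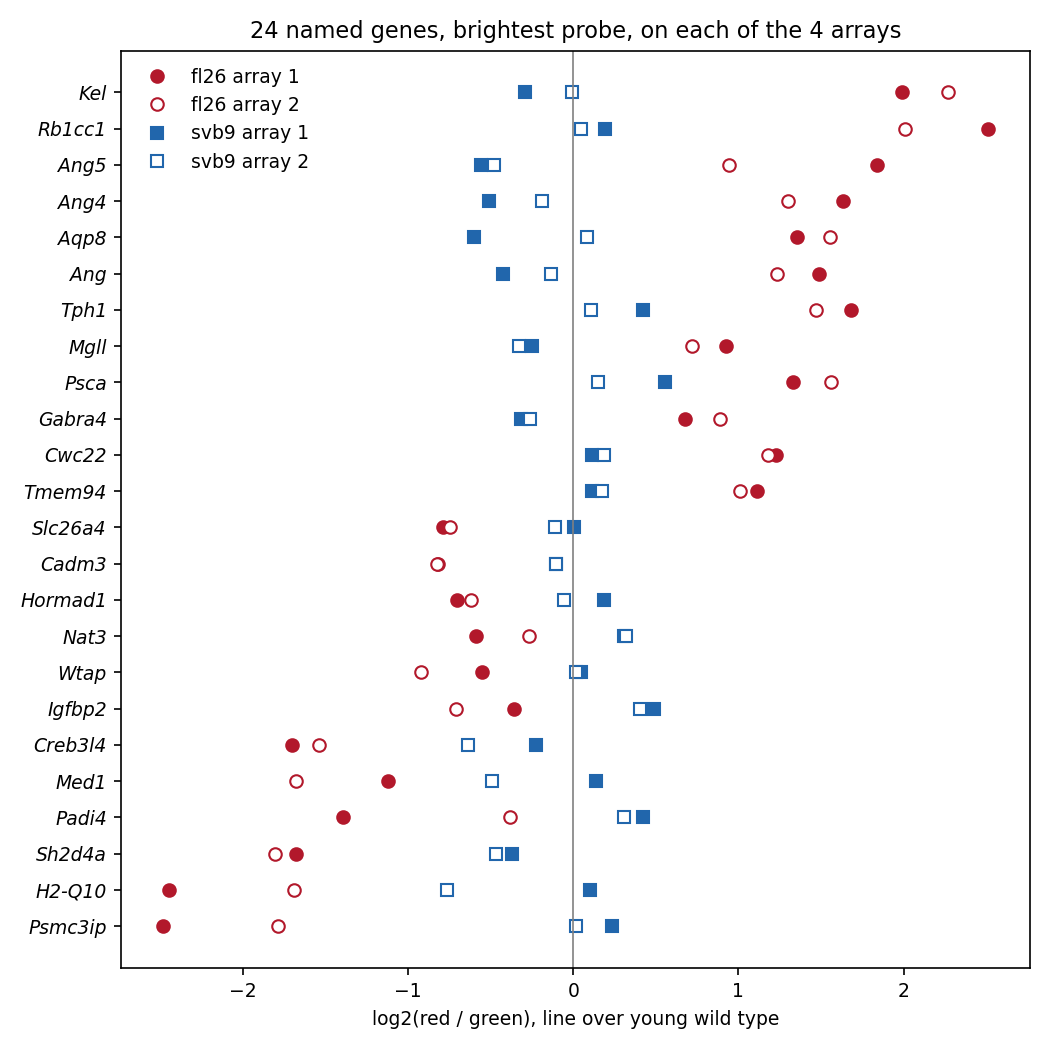
Log2 ratio of each line over young wild type for the 24 genes with the widest gap between the lines, on each of the 4 arrays (circles, fl26; squares, svb9; filled, array 1; open, array 2). For the 12 upper genes both fl26 arrays lie at 0.68 or above, and for the 12 lower genes the fl26 arrays lie below both svb9 arrays, from -0.27 for Nat3 to -2.49 for Psmc3ip.

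The widest gap belonged to Kel, which encodes the Kell blood group metalloendopeptidase. Its ratio was 1.99 and 2.27 on the fl26 arrays and -0.29 and -0.011 on the svb9 arrays. The difference of 2.28 ± 0.18 (limma SE, n = 2 arrays per line), or 4.86-fold, was the same within number 1 and number 2 (2.28 and 2.28). Both svb9 arrays thus had small ratios and both fl26 arrays large positive ones, with an adjusted p of 0.290 (limma, Benjamini-Hochberg).

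Secreted ribonucleases of 1 family, Ang, Ang4 and Ang5, were higher in fl26. The angiogenins are small secreted ribonucleases of the pancreatic ribonuclease family, with roles in host defence and vessel growth. Ang4 stood at 1.64 and 1.30 in fl26 and -0.51 and -0.19 in svb9, a difference of 1.82 ± 0.20. Ang5 stood at 1.84 and 0.94 against -0.56 and -0.48, a difference of 1.91 ± 0.30. Ang, angiogenin itself, stood at 1.49 and 1.23 against -0.42 and -0.14, a difference of 1.64 ± 0.18. In all 3 genes the fl26 ratios were positive and the svb9 ratios negative. A second Ang4 probe gave 1.71, and an Ang2 probe, above background on 3 of the 4 arrays and so not tested, gave 1.29. Angiogenin genes are related copies, and a probe may read several of them. These values are therefore uncertain as to which copy they come from and are not separate findings.

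The upstream sequences of these genes are shown because probes assigned to 3 related genes gave like differences, whereas those of Rnase4, which shares a start with Ang, gave smaller ones. They are the 250 bases before the RefSeq start of each gene (GRCm38.p6), printed 5′ to 3′ on the gene's own strand, for Ang4 (chr14:51773591-51773840, minus strand), Ang5 (chr14:43956819-43957068, plus strand) and Ang (chr14:51090827-51091076, plus strand). Capitals mark the longest run that Ang4 and Ang5 have in common.
Ang4: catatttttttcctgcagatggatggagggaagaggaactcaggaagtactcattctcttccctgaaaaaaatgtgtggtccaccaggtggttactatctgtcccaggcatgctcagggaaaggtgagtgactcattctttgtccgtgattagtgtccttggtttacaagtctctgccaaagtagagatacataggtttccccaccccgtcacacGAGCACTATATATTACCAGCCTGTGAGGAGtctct
Ang5: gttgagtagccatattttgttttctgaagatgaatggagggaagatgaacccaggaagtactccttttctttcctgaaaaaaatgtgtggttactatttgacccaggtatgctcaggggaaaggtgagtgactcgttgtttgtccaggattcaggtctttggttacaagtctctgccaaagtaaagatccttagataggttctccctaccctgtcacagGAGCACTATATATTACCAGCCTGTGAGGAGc
Ang: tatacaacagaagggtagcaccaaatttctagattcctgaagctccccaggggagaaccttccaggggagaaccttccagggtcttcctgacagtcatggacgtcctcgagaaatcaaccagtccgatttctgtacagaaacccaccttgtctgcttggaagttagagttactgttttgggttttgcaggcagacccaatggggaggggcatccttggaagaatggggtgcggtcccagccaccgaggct
Ang4 and Ang5 were identical at 211 of 268 aligned positions, 78.7%, and their longest common run is 30 bases, ending 5 bases before the start of Ang4 and 1 base before that of Ang5. The upstream bases of Ang were identical to those of Ang4 at 46.1% of aligned positions, with no common run longer than 7 bases. The motif TATATA, searched on both strands, lies in the upstream bases of Ang4 and Ang5 and not in those of Ang, and 5.25% of the 32851 upstream windows of this length hold it. The motif TATAAA, searched likewise and held by 12.4% of the windows, is in none of the 3. Ang5 shares all 250 bases with Ang6. Ang shares its start, and so all 250 bases, with Rnase4, a ribonuclease transcribed from the same region. Rnase4 stood at 0.27 and 0.22 in fl26 and 0.13 and -0.049 in svb9, a difference of 0.21 ± 0.15, and its second probe gave 0.11. The probe assigned to Ang thus differed 3.12-fold and the brightest Rnase4 probe 1.15-fold, but the Ang probe may read its copies too. RefSeq lists 2 starts for Rnase4, and the gap between both differences was not tested. Rnase1, the pancreatic-type ribonuclease of the same cluster, stood at -0.025 and 0.68 against -0.85 and 0.37, and its arrays overlapped between the lines.

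Rb1cc1 encodes FIP200, a scaffold of the ULK kinase complex that starts autophagy, the delivery of cell contents to the lysosome. Its brightest probe read 2.51 and 2.01 on the fl26 arrays and 0.19 and 0.049 on the svb9 arrays, a difference of 2.14 ± 0.21 (4.41-fold). Its other tested probes differed by 1.71, 0.82 and 0.45, and 2 probes not above background on all 4 arrays by 0.38 and 0.038. All 6 probes were higher in fl26, but over a range from 4.41-fold to almost none, and the files do not say which transcript each probe reads. The next highest autophagy gene was Atg101, at 0.24. Of the 31 autophagy genes tested from a list of 34, 14 were higher and 17 lower on the mean, where 52.4% of all genes were higher. Their median difference was -0.013 against 0.0081 over all genes, and 0.21 against 0.22 with median centring. The other members of the ULK complex besides Atg101 stood at 0.061 (Ulk1) and 0.086 (Atg13).

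**Figure D3:**
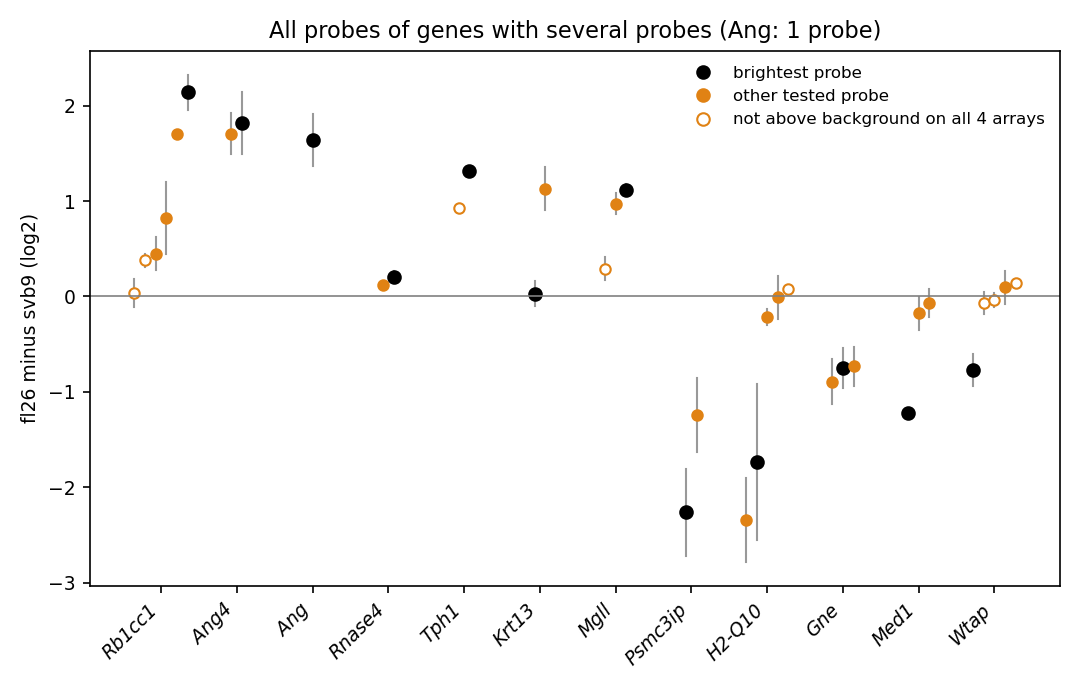
Difference between the lines (log2) for every probe of 12 genes; each point is the mean of both replicate numbers and the grey line joins number 1 and number 2. Filled points were above background in red on all 4 arrays, and black marks the brightest probe. The tested Ang4, Mgll and Gne probes share their direction and rough size, whereas the Rb1cc1, Krt13, H2-Q10, Med1 and Wtap probes spread from a large difference to almost none.

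Several of the remaining higher genes encode membrane or lipid-handling proteins. Aqp8, a water channel of glandular epithelia, read 1.35 and 1.56 in fl26 and -0.60 and 0.085 in svb9, a difference of 1.71 ± 0.25. Mgll, the monoacylglycerol lipase that frees arachidonic acid from 2-arachidonoylglycerol, read 0.92 and 0.72 against -0.25 and -0.33, a difference of 1.11 ± 0.15. A second Mgll probe gave 0.97 and an untested one 0.29. Psca, a surface antigen first described in the prostate, read 1.33 and 1.56 against 0.55 and 0.15, a difference of 1.09 ± 0.20. In these 3 genes no fl26 array was as low as an svb9 array. The other genes of the group were Gabra4, a subunit of the GABA-A receptor (difference 1.07), Cwc22, a splicing factor (1.05), and Tmem94, a membrane protein (0.92). For Cwc22 the fl26 arrays read 1.23 and 1.18 and the svb9 arrays 0.11 and 0.19, one of the tightest sets of 4 values.

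Genes of serotonin and peptide signalling were higher in fl26 as far as they could be measured. Tph1, the rate-limiting enzyme of serotonin synthesis outside the brain, read 1.68 and 1.47 in fl26 and 0.42 and 0.11 in svb9, a difference of 1.31 ± 0.18 (adjusted p 0.470, limma, Benjamini-Hochberg). A second Tph1 probe, dimmer and not tested, gave 0.92. Calca, which encodes calcitonin and the peptide CGRP, read 1.92 and 1.29 against 1.10 and 0.25. Slc18a1, a vesicular transporter that loads monoamines, read 1.04 and 0.51 against -0.11 and -0.014. Dim second probes of Calca and Slc18a1, above background on 2 arrays and on none, gave 0.052 and -0.0098. Maoa, which breaks serotonin down, differed by 0.53, and its relative Maob by 0.24, with array values that overlapped. The 5 genes tested from this list of 18 were thus all higher in both replicate numbers, where 27.5% of all genes were, with a median of 0.84, or 0.50 without svb9 array 2. Maob counted among them with a difference of 0.0031 in number 2. The other 13 were not tested. Of these, the granin and secretory granule genes Chga, Scg3 and the transcription factor Insm1 were above background on both fl26 arrays and on 1 svb9 array, and 6, among them Chgb and Syp, on no array. The defining granule markers of neuroendocrine cells were therefore too dim to compare, and their part in the result was not tested. Aanat, the enzyme that acetylates serotonin, stood at 1.01 and 1.55 against 0.15 and 1.03, a difference of 0.69, with array values that overlapped and -0.049 on a probe above background on no array, and was chosen after its values were seen.

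Among the genes lower in fl26, the widest gap belonged to Psmc3ip. It encodes HOP2, a protein of homologous recombination known mainly from meiosis. It read -2.49 and -1.79 on the fl26 arrays and 0.23 and 0.019 on the svb9 arrays, a difference of -2.27 ± 0.26, and -1.24 on a second probe. The svb9 ratios were small, and the fl26 arrays stood 4.81-fold below svb9. The other homologous recombination genes showed no such difference: of 8 tested from a list of 23, 5 were higher, and the next lowest, Rpa2 and Rpa1, differed by -0.0023 and -0.0015. Hormad1, another gene of meiotic chromosomes, read -0.70 and -0.62 against 0.18 and -0.055, a difference of -0.73.

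H2-Q10, a secreted major histocompatibility class I protein best known from liver, was far lower in fl26 on 2 of its probes. The brightest read -2.45 and -1.69 on the fl26 arrays and 0.10 and -0.77 on the svb9 arrays, a difference of -1.74 ± 0.37. A second read -2.55 and -2.58 against 0.23 and -0.67, a difference of -2.34. Its 2 further tested probes differed by -0.22 and -0.010, and an untested probe by 0.077. Class I genes are near-identical copies, so which of them each probe reads is uncertain. The classical class I genes H2-K1 and H2-D1 were slightly higher in fl26, by 0.26 and 0.26, as were the class II genes H2-DMb1 (0.39) and H2-Ab1 (0.39). Of 14 antigen presentation genes tested, 10 were higher, where 52.4% of all genes were. The median of the 14 was 0.22, and between 0.047 (without fl26 array 2) and 0.13 (without svb9 array 2) with 1 array left out.

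Creb3l4 encodes a transcription factor held in the membrane of the endoplasmic reticulum, which in the prostate is known as androgen-induced. It read -1.71 and -1.54 in fl26 and -0.22 and -0.63 in svb9, a difference of -1.19 ± 0.19. The ratios of both lines were negative on both arrays, those of fl26 further so. Its relative Creb3l1 differed by -0.25 and Creb3l2 by 0.031. The endoplasmic reticulum stress genes were mostly on the other side on the mean. Of 27 tested, 20 were higher in fl26 and 9 of these in both replicate numbers, against 52.4% and 27.5% of all genes. Asns (0.38) and Manf (0.34) led, and 2 genes were lower in both numbers, against 24.4% of all genes. The median of the 27 was 0.066, with 0.23 in number 1, -0.071 in number 2 and -0.014 without fl26 array 1.

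Sh2d4a, an adaptor protein with an SH2 domain, had some of the most even values among the lower genes. Its ratio was -1.68 and -1.81 on the fl26 arrays and -0.37 and -0.47 on the svb9 arrays, and the differences within number 1 and number 2 were -1.31 and -1.34. Nat3, an arylamine N-acetyltransferase whose gene lies 2 protein-coding genes away, was lower too, at -0.59 and -0.27 against 0.31 and 0.32. In svb9 both Nat3 ratios were positive, whereas both Sh2d4a ratios were negative.

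Igfbp2 encodes a secreted protein that binds insulin-like growth factors. It read -0.36 and -0.71 in fl26 and 0.49 and 0.40 in svb9, a difference of -0.98 ± 0.18. The ratios of the lines thus had opposite signs. Of the 11 genes of the insulin-like growth factor axis that were tested, 8 were higher in fl26, where 52.4% of all genes were. Among them were Igf1 (0.25) and Igfbp5 (0.42, and 0.12 on an untested probe). The median of the 11 was 0.039, or -0.099 without fl26 array 1. Padi4, which converts arginine to citrulline in proteins, read -1.39 and -0.39 against 0.42 and 0.31, with a difference in number 1 (-1.82) well beyond that in number 2 (-0.70). Cadm3, a cell adhesion molecule, and Slc26a4, an anion exchanger, differed by -0.72 and -0.71, with fl26 arrays that lay close together (-0.82 and -0.83, and -0.79 and -0.74). Probes not above background on all 4 arrays gave -0.034 for Cadm3, -0.0016 for Hormad1 and -0.0064 for Padi4. The brightest probe of Med1, a Mediator subunit that nuclear receptors bind, differed by -1.22, but its 2 other tested probes by -0.18 and -0.069. Wtap, a subunit of the RNA methyltransferase complex for N6-methyladenosine, showed the same split, with -0.77 on its brightest probe and 0.095 on the other tested one.

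Beyond these 24 genes, the probes past 1.5-fold in both replicate numbers named a further set. Together the 69 probes named 49 genes, 29 higher and 20 lower, and 2 of the largest differences belonged to probes without a gene symbol, at 2.48 and 2.24. Among the epithelial genes higher in fl26 were Fxyd4, a regulator of the sodium pump (difference 1.32), Clca1, a secreted protein of mucous epithelia (1.03), Ces2g, a carboxylesterase (0.94), and the complement factor C3 (0.65, and -0.054 on an untested probe). The transcription factor Gata2, which acts with the androgen receptor in prostate cells, differed by 0.65 and 0.74 on 2 probes, and Id4, an inhibitor of basic helix-loop-helix factors, by 0.69 and 0.48. Krt13, a keratin of stratified epithelia, was past 1.5-fold on 1 probe (1.13) and not on its brighter one (0.030, or -0.018 from the red channel alone).

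Lower in fl26 were Aqp5, a water channel of secretory glands, at -0.68 and -1.25 against 0.24 and -0.19, and Gne, the enzyme that opens sialic acid synthesis. All 3 Gne probes were lower, by 0.89, 0.75 and 0.73 on the log2 scale. Mme, the membrane peptidase neprilysin, differed by -0.64 and -0.62 on its probes, although its values overlapped between the lines once both replicate numbers were pooled (-1.09 and -0.36 in fl26, -0.48 and 0.31 in svb9). The same held for Clec2d, a ligand of a natural killer cell receptor (-1.60 and -0.20 against -0.22 and 0.42). Fbp1, an enzyme of gluconeogenesis (-0.64), Hoxb7, a homeobox gene (-0.77), and Tpd52l1 (-0.84) completed the examples. Ubash3b, a phosphatase of signalling proteins, differed by -0.62 and missed 1.5-fold in number 2. Nrcam, a neural adhesion molecule, was above background on 3 of the 4 arrays and so not tested, at -1.04.

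These differences lay in the red channel, which holds the lines' own RNA. Red and green values were rebuilt from each ratio and the average intensity, after average intensities were quantile-scaled across all 6 arrays. On these values, the difference in red was larger than that in green for all 38 higher and all 31 lower probes. The largest difference in green was 0.29 in size and the smallest in red 0.61.

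Most genes of the lipoxygenase pathway itself differed little between the lines or were too dim to compare. The array's probe for Alox8, the mouse counterpart of the human 15-LOX2 gene, was above background in red on none of the 4 arrays, and whether it would read the transgene is not stated, so the transgene's own level was not analysed here. Of 12 lipoxygenase and prostanoid genes tested from a list of 25, 4 were higher and 8 lower in fl26, and the median was -0.082, or 0.14 with median centring, which moved the median of all genes to 0.22. Without fl26 array 2 it was 0.039, and without fl26 array 1 -0.24. The lowest was Pla2g4a, the phospholipase that frees arachidonic acid from membranes, at -0.49 and -0.41 in fl26 against 0.017 and -0.087 in svb9, a difference of -0.41 ± 0.14. The fl26 and svb9 values did not overlap, but the difference was under 1.5-fold. Alox5ap, which presents arachidonic acid to 5-lipoxygenase, differed by 0.15, and Alox12, a platelet-type lipoxygenase, by 0.15. Ptgs2 was above background on 1 fl26 array and no svb9 array.

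Markers of the cell types in the gland were compared next. In whole tissue, more cells of a type and more RNA per cell cannot be told apart. Basal cells line the gland beneath the secretory layer, and 2 of their defining genes were among those past 1.5-fold. Trp63, the transcription factor p63 of basal cells, read 0.78 and 0.86 in fl26 and 0.065 and 0.095 in svb9, a difference of 0.74 ± 0.14. Col17a1, a collagen of the hemidesmosome, read 0.97 and 0.92 against -0.12 and 0.30, a difference of 0.85. For both genes the fl26 arrays lay above both svb9 arrays, and the svb9 arrays were the more even for Trp63. A dim second probe, not above background on all 4 arrays, gave 0.13 for Trp63 and 0.16 for Col17a1. Of 19 basal genes tested, 15 were higher in fl26, 9 of them in both replicate numbers, against 52.4% and 27.5% of all genes. The higher basal genes include Krt5 (0.32) and Krt14 (0.36), while Krt6a was lower (-0.44). The median was 0.14, with 0.26 in number 1, -0.0082 in number 2 and -0.037 without fl26 array 1.

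Luminal genes split evenly, with 11 of 21 higher and a median of 0.014, or -0.10 without fl26 array 2. The highest was Cldn8, at 0.37, and the lowest Cdh1, the adhesion protein E-cadherin. Cdh1 read -0.29 and -0.79 in fl26 and 0.060 and -0.044 in svb9, a difference of -0.55. Spdef, an epithelial transcription factor chosen after its values were seen, differed by -0.46. Genes reported in castration-resistant or proximal luminal cells, here called progenitor-like, were split, with 8 of 14 tested higher and 6 lower. In both replicate numbers 8 were higher and 5 lower, against 27.5% and 24.4% of all genes. In 6, led by Clu and Psca, both fl26 arrays lay above both svb9 arrays, against 12.4% of all genes. Clusterin, encoded by Clu, is a secreted chaperone. Its ratio was 1.52 and 2.62 in fl26 and 0.99 and 0.087 in svb9, so the difference of 1.53 came mostly from number 2 (2.53, against 0.53 in number 1), and its spot was saturated in red on 1 array. Ventral prostate secretory genes varied more with the replicate number than with the line. Their median ratio was -0.084 and 0.55 on the fl26 arrays and -0.51 and 0.38 on the svb9 arrays, and 4 of the 9 were saturated in red on an array. The ribonucleases Ang4, Ang and Rnase1 had the highest differences of the 9, and Azgp1, a secreted glycoprotein, the lowest, at -0.59.

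Fibroblast, macrophage and endothelial genes were mostly higher in fl26 on the mean, by small amounts. Of 32 fibroblast and matrix genes, 28 were higher, 19 of them in both replicate numbers and 1 lower in both, against 27.5% and 24.4% of all genes. The median was 0.17. Fbln2, a matrix protein of basement membranes, led with 0.60 and 0.41 in fl26 and -0.075 and -0.47 in svb9, followed by the collagen VI chain Col6a3 (0.62) and vimentin, Vim (0.43). Untested probes gave -0.014 for Col6a3 and 0.040 for Vim. All 12 macrophage genes were higher, 9 in both numbers, with a median of 0.18. The smallest difference was that of Mpeg1, at 0.029, and an untested probe of it gave -0.31. The lysozymes Lyz1 (0.70) and Lyz2 (0.61, and 0.16 on an untested probe) and the complement gene C1qc (0.42) led. A further 12 macrophage genes, among them Adgre1 and Cd68, were not above background on all arrays. All 11 endothelial genes were higher on the mean but 5 in both numbers, led by Ly6c1 (0.77, and 0.70 on a second probe) and the lymphatic marker Lyve1 (0.64, and -0.051 on an untested probe). Array 1 of fl26 had a large part in the stromal medians. The fibroblast median was 0.33 in number 1 and 0.034 in number 2, and without fl26 array 1 it was -0.065. The endothelial median was 0.39 and -0.088, and -0.14 without that array. The macrophage median kept its sign at 0.094. T and B cell genes were mostly too dim, with 6 of 21 and 1 of 14 tested. Of the 6 T and NK cell genes, 3 were higher and 3 lower, with a median of -0.035.

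**Figure D4:**
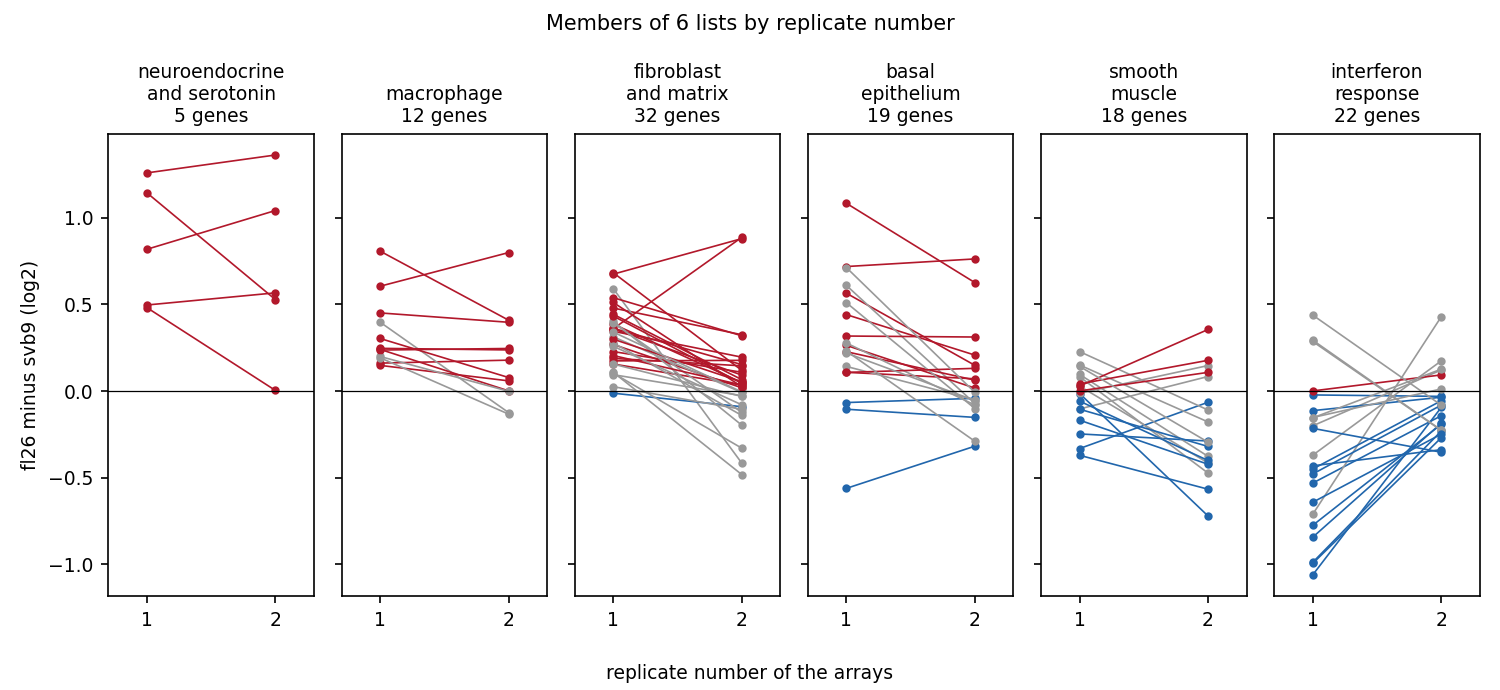
Difference between the lines (log2) for each tested gene of 6 lists, with the arrays numbered 1 and 2 side by side and a line for each gene (red, higher in fl26 in both numbers; blue, lower in both; grey, mixed). The 5 serotonin and neuroendocrine genes are above 0 in both numbers, and most interferon genes are below 0, further in number 1 than in number 2.

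Interferon response genes were mostly lower in fl26. These genes are switched on by type I interferon and encode antiviral proteins. Of 22 tested, 18 were lower, 13 of them in both replicate numbers and 1 gene higher in both, and the median was -0.20. Over all genes, 24.4% were lower and 27.5% higher in both numbers. Oas1a, which makes the activator of an antiviral ribonuclease, read -0.81 and -0.0012 on the fl26 arrays and 0.19 and 0.27 on the svb9 arrays, a difference of -0.63 ± 0.28. Ifi44, Usp18, Oasl2 and Bst2 differed by -0.61, -0.58, -0.48 and -0.45, and an untested Ifi44 probe by 0.020. Fl26 array 1 was the lowest array for each of these 5 genes. The median was -0.40 in number 1 and -0.088 in number 2, and -0.073 without that array. Median centring, which moved the median of all genes to 0.22, put it at 0.028, still below the other genes. The nuclear body genes Sp110 and Sp100, also induced by interferon but chosen after their values were seen, read -1.04 and -0.75 against 0.18 and -0.23 and -0.87 and -0.78 against -0.10 and -0.32, and in these both fl26 arrays were low. An untested Sp100 probe gave -0.051. Canonical members such as Ifit1, Isg15, Mx1 and Irf7 were not above background on all 4 arrays.

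Smooth muscle genes were lower too, 13 of 18, where 52.4% of all genes were higher. The smooth muscle median was -0.17, mostly from number 2 (-0.29, against -0.0062 in number 1). With median centring it was 0.15, still below the 0.22 of all genes. Ppp1r14a, an inhibitor of myosin phosphatase, read -0.29 and -0.21 in fl26 and 0.080 and 0.35 in svb9. Cnn1 (calponin) differed by -0.27 and Tagln (transgelin) by -0.37, and with median centring they stood at 0.11 and 0.036, above 0 but below the median of all genes. Without fl26 array 2 the median was 0.017.

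**Figure D5:**
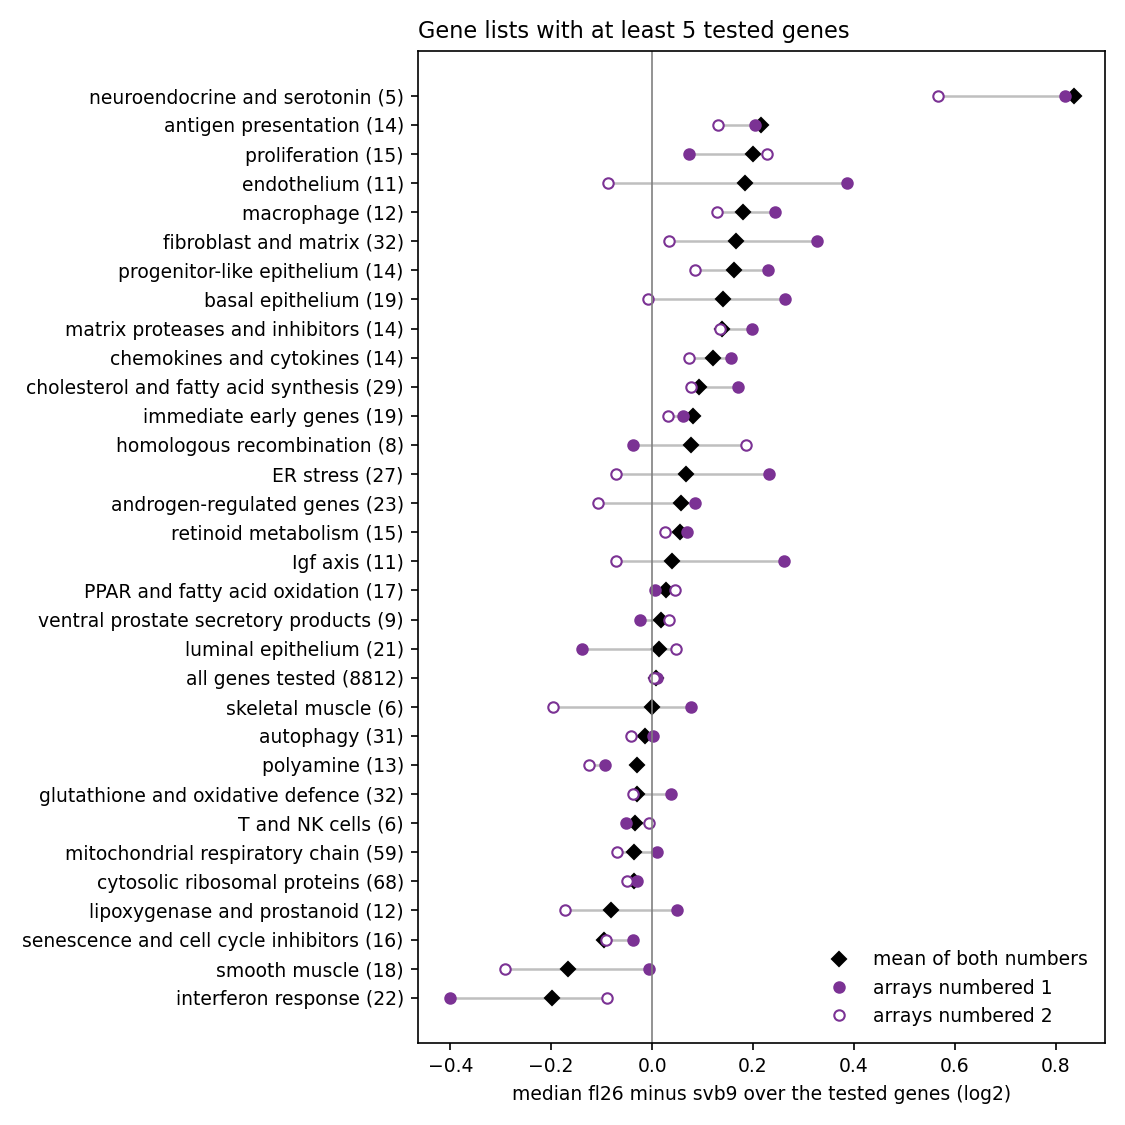
Median difference between the lines (log2, fl26 minus svb9) over the tested genes of each list with at least 5 such genes, whose number is in brackets; diamonds are the mean of both replicate numbers and circles number 1 (filled) and number 2 (open). All genes tested lie near 0, the serotonin and neuroendocrine list lies highest at 0.84 and the interferon list lowest at -0.20 (0.028 with median centring, against 0.22 for all genes), and several lists change sign between the numbers.

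Other pathways differed less or less evenly. Over all genes, 52.4% were higher in fl26 on the mean and 27.5% in both numbers. Genes of cholesterol and fatty acid synthesis were higher in 23 of 29 cases, 18 in both numbers, with a median of 0.092 (-0.039 without fl26 array 1). Fdps, which makes farnesyl diphosphate, led with 0.33 and 0.90 in fl26 against -0.0032 and 0.072 in svb9, and an untested probe of it differed by 0.046. Proliferation genes were higher in 12 of 15 cases, with a median of 0.20 that was 0.013 without fl26 array 2, and Cdc20, an activator of the anaphase-promoting complex, differed by 0.42 from number 2 alone (-0.069 and 0.92). The cell cycle inhibitors and senescence genes were lower in 11 of 16 cases, with a median of -0.095, or 0.14 with median centring, still below the 0.22 of all genes, and -0.13 to -0.029 with 1 array left out. In retinoid metabolism, the binding protein gene Crabp1 was higher in fl26 (0.47 and 1.32 against -0.067 and 0.060) and the retinol receptor gene Stra6 lower (-0.66 and -0.34 against 0.32 and 0.13), while the median of 15 genes was 0.056 (0.0038 to 0.085 with 1 array left out). Of the chemokines and cytokines, 12 of 14 were higher, led by the mucosal chemokine Cxcl17 (0.56), and of the matrix proteases and their inhibitors 12 of 14, led by Timp3 (0.54). Ribosomal protein and respiratory chain genes had medians of -0.035 and -0.035, and polyamine, glutathione, androgen-regulated and fatty acid oxidation genes medians of -0.030, -0.030, 0.057 and 0.028. With 1 array left out these ran over -0.22 to 0.14 for ribosomal proteins, -0.15 to 0.024 for the respiratory chain, -0.096 to -0.014 for polyamine, -0.045 to 0.068 for glutathione, -0.13 to 0.046 for androgen-regulated and -0.11 to 0.11 for fatty acid oxidation genes, so all but the polyamine median took both signs. Among the immediate early genes, which respond to handling of tissue, 12 of 19 were higher, with a median of 0.082 (0.022 to 0.14 with 1 array left out), and Atf3 was high on fl26 array 2 alone (0.068 and 1.54 in fl26, 0.16 and 0.11 in svb9).

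Few probes were above background in 1 line alone. Of the probes above background in red on both arrays of one line and on neither of the other, 3 were in fl26 only (Gtse1, Aox1 and 1 without a symbol) and 4 in svb9 only (Dcpp1, Tnks and 2 without a symbol). Dcpp1, a secreted protein of glands, read -0.68 and -0.32 on the fl26 arrays and -0.30 and 0.71 on the svb9 arrays, so its high value came from svb9 array 2. The differences of Aox1, an aldehyde oxidase, and Tnks, a poly(ADP-ribose) polymerase, were 0.39 and -0.47, and that of Gtse1, a mitotic gene, was 0.15.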

How the data were processed

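Agilent's Feature Extraction software read the scans, per the file headers. The deposited files give each spot's mean intensity and median background intensity per channel, unnormalized, flags for signal above background, saturation and outliers, and the software's log10 ratio, background-subtracted and dye-normalized, per the file headers. Here, control spots (2256 of 43790) and outliers were left out, background was corrected by normexp (offset 50), arrays were normalized by loess and spots averaged per probe, with limma 3.58.1 (R 4.3.3; statmod 1.5.0). For probe brightness and the single channels, average intensities were also quantile-scaled across all 6 arrays, which leaves the ratios unchanged. Gene names come from RefSeq (GRCm38.p6) where a probe's accession matched, and otherwise from the name deposited with the probe, as for Sh2d4a, Wtap and Gne. Together these gave a usable symbol for 11184 tested probes. Probes above background in red on all 4 arrays were tested with limma, 2-sided, with Benjamini-Hochberg adjustment over 14205 probes, and the spread rests on 2 residual degrees of freedom plus a prior of 3.65. The model was tested on simulated data with noise drawn independently for each array. In the real data same-numbered arrays varied together (r = 0.65), so the simulation does not check the error estimate for these arrays. The number of arrays limits the precision. The genes and lists were chosen with earlier results of these data known. Named are the 12 genes per direction with the widest gap between the lines' arrays (saturated and unnamed probes passed over), each list's highest and lowest member where the difference is 0.4 or more in size, 10 genes from an earlier analysis, and genes chosen after their values were seen, which include the further members of the 69 probes and of the lists. Upstream sequences are from RefSeq, aligned with a match score of 1, a mismatch score of -1 and a gap score of -2. Alternatives covered background correction, normalization, filters, channel, covariates and left-out arrays. One gene is not reported here.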

Additional observations from a re-analysis of the deposited data

How the results depend on the processing

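The labels give both lines the replicate numbers 1 and 2 without saying that a number pairs arrays. How far an array lies from its line's mean correlated between same-numbered arrays with r = 0.65 across probes. With the replicate number as a block, limma called 121 probes (64 higher, 57 lower in fl26). They include all 69 past 1.5-fold in both numbers and all 24 genes of the widest gap. Both sets were chosen from the same arrays for like differences or a gap, so these calls are no separate support for them. The prior of the blocked fit holds 12.03 degrees of freedom, against 3.65 without the block. With extraction date as a term over all 6 arrays limma called 68 (32 higher, 36 lower), 52 of them among the 121, and 19 of the 24 genes. The count of 0 called probes stood under the other alternatives that used all 4 arrays, and leaving out 1 array gave 0 to 3. The count of 69 became 118 with an offset of 10, 151 with the Feature Extraction log ratios (73 higher, 78 lower), 140 with median centring (134 higher, 6 lower) and 19 at 2-fold, and lay between 63 and 79 otherwise; the cause was not tested, except that 2-fold is the stricter limit. The 24 genes were chosen for a gap on these same arrays, so leaving out 1 array could not reverse them. Settings that change only the filter or the error estimate could not either. With that limit, they kept their direction in all 17 settings, the reported one included. Of 97 genes followed, 9 reversed under at least 1: with median centring, which moved the median of all genes to 0.22, Tagln (0.036) and Cnn1 (0.11), with the red channel alone Krt13 (-0.018), and with extraction date Krt13 (-0.099) and Krt18, saturated in red on 2 arrays (-0.039). Leaving out 1 array at a time gave -1.86 to 0.82 for Rplp1, -0.17 to 0.65 for Maob, -1.24 to 0.081 for Usp18, -0.097 to 0.13 for Krt18, -0.76 to 0.022 for Tagln, -0.18 to 0.24 for Krt13, -0.069 to 1.40 for Atf3 and -0.040 to 1.17 for Rnase1. Array 2 of each line had fewer probes above background than array 1, and this limits which genes could be compared.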

Other observations

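Genes with a large difference between the lines often had another such gene nearby on the chromosome. This was noticed after the values were seen and was not tested. Of the 49 named genes past 1.5-fold in both replicate numbers, 12 (24.5%) had another of them within 25 protein-coding genes, against 9.80% of the 8410 other tested genes. Within 10 genes it was 12.2% against 4.17%, and within 50 genes 36.7% against 18.3%. The closest were Nat3 and Sh2d4a, 2 genes apart and both lower in fl26, and Gata2 and Mgll, 7 genes apart and both higher. Ang and Ang4 were 15 genes apart, Psca and Ly6c1 17, and Cwc22 and Fam171b 19, each of them higher in fl26. Some pairs went opposite ways: Hoxb7 was lower and Cbx1 higher, 9 genes apart, and Krt13 was higher and Psmc3ip lower, 39 genes apart. The angiogenins and the Ly6 family, to which Psca and Ly6c1 belong, are gene clusters, so nearby members are not independent.

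Gut and bladder epithelial genes, listed after Aqp8, Clca1 and Krt13 had been seen, were mostly too dim to compare. Of 14 gut genes 2 were tested, and both were higher in fl26: Car1, a carbonic anhydrase, by 0.46, and Guca2a, the peptide guanylin, by 0.24. Of the urothelial genes 4 were tested, 2 higher and 2 lower, with a median of 0.015.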
